A study of Mus musculus with 4 samples.

Results

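Myogenic regulators and muscle acetylcholine receptor genes were examined in Achilles tendon after tenotomy and after a sham operation. The 10 genes were chosen by name from 23352 entries in the deposited gene tables: the muscle-specific transcription factors Myod1, Myog, Myf5 and Myf6, the satellite cell genes Pax7 and Cdh15, the fusion gene Tmem8c, and the receptor subunit genes Chrna1, Chrng and Chrne. All 10 were found in both tables. The animals were male mice homozygous for the Scx-EGFP reporter on a C57BL/6 background. Every group, controls included, carried this reporter. The left hindlimb had the sham operation and the right had its Achilles tendon cut, in neonates labelled 7 days and in adults labelled 6 months, and tissue was taken 5 days later. The labels give the same ages for operation and harvest, so the age at harvest is not settled. They also speak of uninjured tendon for the tenotomy pools, which were grouped by the operation named there. Only distal stumps freed of surrounding connective tissue were collected after tenotomy. RNA of 11 mice was pooled for each 7-day library, of 5 mice for the 6-month sham library and of 9 mice for the 6-month tenotomy library. Each group was thus 1 pooled library. No difference below has a replicate check, and no test was made.

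Skeletal muscle forms from precursors that express Pax7 and then switch on the basic helix-loop-helix factors Myf5 and MyoD (Myod1). Myogenin (Myog) drives their terminal differentiation, MRF4 (Myf6) is the factor of this family that mature fibres keep, and myomaker (Tmem8c, now Mymk) lets myoblasts fuse. M-cadherin (Cdh15) joins satellite cells to fibres. The acetylcholine receptor of the end plate holds an alpha subunit (Chrna1) beside beta and delta subunits, and either a gamma subunit (Chrng) in foetal or denervated fibres or an epsilon subunit (Chrne) in innervated adult fibres. In pooled bulk tissue, fewer cells of a type and less RNA per cell cannot be told apart.

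In adults, Myog, Tmem8c, Chrna1 and Chrng stood higher in the tenotomy library while mature muscle genes stood lower. In neonates, 9 of the 10 genes were detected after sham and only Myog, Tmem8c, Chrna1 and Chrng after tenotomy, the first 3 at lower levels than after sham and Chrng from 1 fragment in each library. Levels are FPKM: fragment numbers divided by transcript length and by library size, which allows levels of different genes to be compared per length. The spacing of low FPKM values gave the number of fragments behind each value. It implied about 2670000 fragments (sham) and 3270000 (tenotomy) for the neonates, and about 1800000 (sham) and 2430000 (tenotomy) for the adults. Intervals in parentheses are 95% exact Poisson or binomial intervals from those fragments and cover counting error only. For a gene listed at 0 in a library, "at least" sets the other library's measured level against a floor of 3 fragments, and the low end of the exact interval, which also holds the counting error of that level, is given beside it.

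Of 22 mature skeletal muscle genes, all were at least 2-fold lower after tenotomy at both ages. In neonates their summed FPKM was 23171 after sham and 51.1 after tenotomy, where it rested on about 794 fragments. In adults it was 51719 and 16441. The sum was thus 453-fold lower after tenotomy at 7 days and 3.15-fold lower at 6 months. The adult muscle RNA also differed in kind: the slow myosin gene Myh7 stood at 341 FPKM after sham against 0.563 after tenotomy, the fast oxidative myosin gene Myh2 at 284 and 1.68, and the fast glycolytic Myh4 at 2962 and 1227. Tendon markers were present in all libraries, with Scx between 5.70 and 24.8 FPKM, although 4 of 7, Scx included, were at least 2-fold lower after adult tenotomy. Among 8 Schwann cell genes, the lineage factor Sox10 lay between 0 and 0.297 FPKM. At each age 1 of the 8 reached 5 FPKM in a library and lay within 2-fold, so Sox10 alone does not show that Schwann cell RNA was absent.

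The regions just before the transcription starts are shown for the receptor genes and for Myog. Myog, Chrna1 and Chrng stood higher together in adults. Adult Chrne rested on 2 fragments (sham) and 1 (tenotomy), too few to tell whether it changed. Each line gives the 250 bases before the RefSeq start on GRCm38.p6 (mm10), 5′ to 3′ on the gene's strand. Capitals mark every E-box, CANNTG, the core that basic helix-loop-helix factors bind; the pattern is its own reverse complement, so both strands are covered.
Myog chr1:134289754-134290003 (+ strand): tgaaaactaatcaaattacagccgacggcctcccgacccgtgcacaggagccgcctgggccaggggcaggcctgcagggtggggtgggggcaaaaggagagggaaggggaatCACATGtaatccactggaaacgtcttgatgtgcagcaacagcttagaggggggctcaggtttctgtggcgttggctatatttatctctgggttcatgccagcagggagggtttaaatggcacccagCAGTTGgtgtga
Chrna1 chr2:73580339-73580588 (- strand): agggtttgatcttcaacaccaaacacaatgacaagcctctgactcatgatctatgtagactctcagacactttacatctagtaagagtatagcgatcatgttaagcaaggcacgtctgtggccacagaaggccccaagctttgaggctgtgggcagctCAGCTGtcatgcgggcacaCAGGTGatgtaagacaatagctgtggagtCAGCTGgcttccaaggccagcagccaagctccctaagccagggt
Chrng chr1:87205561-87205810 (+ strand): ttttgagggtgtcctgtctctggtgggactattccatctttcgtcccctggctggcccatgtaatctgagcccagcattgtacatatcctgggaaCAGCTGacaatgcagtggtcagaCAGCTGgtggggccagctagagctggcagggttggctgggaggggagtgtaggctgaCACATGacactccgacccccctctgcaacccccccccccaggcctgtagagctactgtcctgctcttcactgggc
Chrne chr11:70619195-70619444 (- strand): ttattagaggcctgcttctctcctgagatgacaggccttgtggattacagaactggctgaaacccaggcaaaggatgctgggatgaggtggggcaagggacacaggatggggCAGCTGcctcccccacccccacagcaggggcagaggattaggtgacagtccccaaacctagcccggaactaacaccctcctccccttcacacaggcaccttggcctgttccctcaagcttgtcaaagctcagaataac
CANNTG occurred 3 times in the Chrna1 and Chrng stretches, with starts 92, 73 and 44 bases before the Chrna1 start and 155, 132 and 75 bases before the Chrng start. In each of these genes 2 of the 3 had the form CAGCTG, which is a subset of the E-box. Myog held CANNTG at 138 and 12 bases before its start and no CAGCTG. The Chrne stretch held a single E-box, of the CAGCTG form, 138 bases before the start, and a single match on either strand to CCGGAA, the core of the N-box of end-plate promoters. Of 32851 such stretches in the RefSeq table, 66.2% held CANNTG, 12.2% held it at least 3 times, 13% held CAGCTG and 12% held CCGGAA. An exact match to the full MEF2 consensus was found in none of the 7 member stretches in that table and in 2.92% of all. Near matches were not counted. The Myog stretch holds such a near match between its E-boxes, which departs from the consensus only in its last base. The count of exact matches therefore does not show that Myog lacks a MEF2 site. Of the other stretches, Cdh15 held 3 CANNTG and Myf5 and Pax7 held none. These are matches of letters, and binding was not measured.

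Myog (chr1:134290004-134292548, mm10) had the widest range of the 10 genes apart from Myf6. Neonates had 15.0 FPKM (11.2 to 19.7) after sham and 0.711 (0.147 to 2.08) after tenotomy, from 52 and 3 fragments. Adults had 1.73 FPKM (0.472 to 4.43) after sham and 26.0 (20.6 to 32.3) after tenotomy, from 4 and 81 fragments. The adult tenotomy library was the highest of the 4 and the neonatal tenotomy library the lowest. As a plain ratio of FPKM, Myog was 15.0-fold higher after tenotomy in adults (5.64 to 56.4) and 21.2-fold lower in neonates (6.85 to 106). On the scale log2((tenotomy FPKM + 1)/(sham FPKM + 1)), which understates differences of low genes, these were 3.30 and -3.23.

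Myod1 (chr7:46376474-46379092) stood at 4.27 FPKM (2.57 to 6.66) in the neonatal sham library and was listed at 0 after tenotomy, at least 7.74-fold lower (exact interval from 5.70). In adults it stood at 4.36 FPKM (2.32 to 7.45) after sham and 7.45 (5.03 to 10.6) after tenotomy, from 13 and 30 fragments. The adult intervals overlap, and the ratio of 1.71 had a counting interval of 0.866 to 3.57.

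Myf6 (chr10:107492860-107494729) was the most abundant of the 4 factors in both sham libraries, at 19.0 FPKM (14.3 to 24.8) in neonates and 33.3 (25.6 to 42.6) in adults. In neonates its interval overlapped that of Myog. After tenotomy it was listed at 0 in neonates, at least 21.9-fold lower than after sham (exact interval from 17.3), and stood at 17.2 FPKM (12.5 to 23.1) in adults. The adult difference of 1.93-fold lower (1.29 to 2.91) lay beyond counting error but did not reach the log2 threshold of 1.

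Myf5 (chr10:107482908-107486134), which lies 6725 bases from Myf6, was near the detection limit. It stood at 0.395 FPKM in the neonatal sham library and 0.437 in the adult tenotomy library, from 2 fragments each, and was listed at 0 in the other libraries. Pax7 (chr4:139738081-139832968) stood at 0.550 FPKM (0.202 to 1.20) in the neonatal sham library, from 6 fragments. It was listed at 0 after neonatal tenotomy, at least 2.45-fold lower (exact interval from 1.44). The adult values of 0.273 and 0.202 FPKM came from 2 fragments each. A difference in adult Pax7, or in Myf5 at either age, was not detectable at this depth.

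Cdh15 (chr8:122848374-122867397) stood at 3.81 FPKM (2.51 to 5.54) in the neonatal sham library and at 0 after tenotomy, at least 11.0-fold lower (exact interval from 8.36). In adults it stood at 5.46 FPKM (3.57 to 8.00) after sham and 3.42 (2.15 to 5.18) after tenotomy, with overlapping intervals.

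Tmem8c (chr2:27061636-27072161) followed the order of Myog. It stood at 5.72 FPKM (3.39 to 9.05) and 0.781 (0.161 to 2.28) after sham and tenotomy in neonates. In adults it stood at 1.09 FPKM (0.115 to 3.44) and 12.7 (8.89 to 17.6). The plain ratio was 11.6-fold higher in adults (3.44 to 114) and 7.32-fold lower in neonates (2.14 to 38.8). The values rest on about 18 and 3 fragments in neonates and about 2 and 36 in adults, sham first. These fragment numbers are approximate, since Tmem8c has more than 1 RefSeq transcript. The gene of its partner in fusion, myomixer (Gm7325 in the tables), stood at 3.003 and 0 FPKM in neonates and at 0 and 7.38 in adults, sham first.

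**Figure D1:**
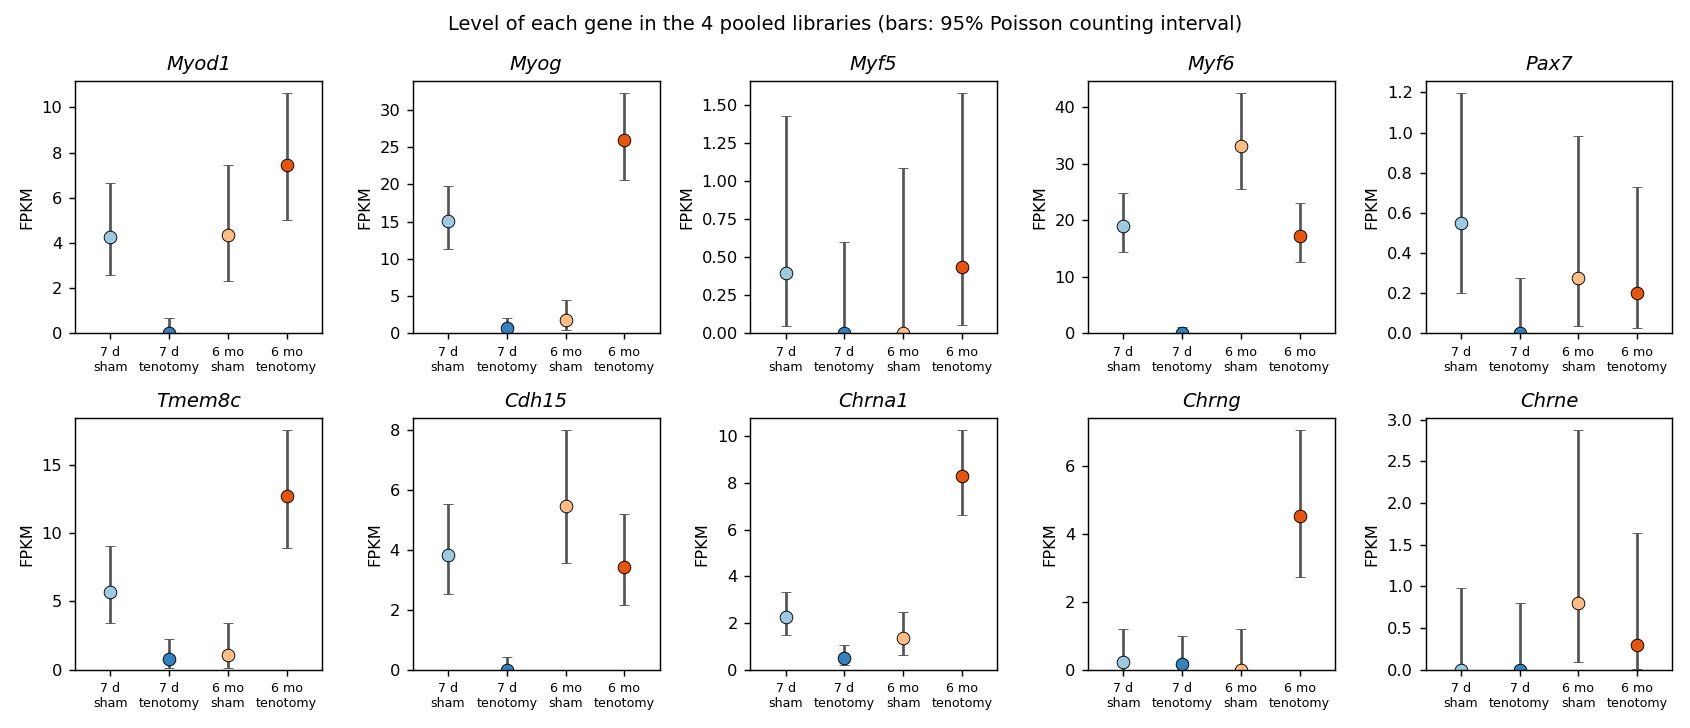
FPKM (vertical axis, linear, a scale of its own in each panel) of the 10 genes in the 4 pooled libraries, with points for values and bars for 95% Poisson counting intervals. Myog, Tmem8c, Chrna1 and Chrng are highest in the 6-month tenotomy library, while Myf6 and Cdh15 are highest in the 6-month sham library.

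The receptor subunits did not move as a block. Chrna1 (chr2:73563281-73580338) stood at 2.27 FPKM (1.47 to 3.35) after sham and 0.518 (0.208 to 1.07) after tenotomy in neonates, from 25 and 7 fragments. In adults it stood at 1.35 FPKM (0.646 to 2.48) and 8.29 (6.61 to 10.3), from 10 and 83 fragments. It was 6.15-fold higher after tenotomy in adults (3.18 to 13.3) and 4.38-fold lower in neonates (1.84 to 12.0).

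Chrng (chr1:87205811-87211835) was all but absent from 3 libraries. It stood at 0.216 and 0.177 FPKM in the neonatal sham and tenotomy libraries, from 1 fragment each, and was listed at 0 in the adult sham library. In the adult tenotomy library it stood at 4.54 FPKM (2.73 to 7.09) from 19 fragments, at least 4.70-fold higher than after sham (exact interval from 3.46). Chrne (chr11:70614883-70619194) was listed at 0 in both neonatal libraries and stood at 0.797 FPKM (0.0965 to 2.88) and 0.295 (0.00747 to 1.64) in the adult sham and tenotomy libraries, from 2 fragments and 1 fragment. In the adult tenotomy library the gamma gene was thus 15.4 times as abundant per length as the epsilon gene (2.44 to 639). In the adult sham library only epsilon was seen, but the counts there allow a gamma to epsilon ratio of up to 4.31.

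In FPKM, the beta subunit gene Chrnb1 went the other way in adults, with 8.82 (sham) and 3.38 (tenotomy). It stood at 8.40 and 2.19 FPKM in neonates. Its level per mature muscle FPKM in adults is given below. The delta gene Chrnd, which ends 5740 bases before Chrng, stood at 1.89 and 0.331 FPKM in neonates and at 0 and 0.744 in adults. Of 12 other receptor and end-plate genes, 7 reached 5 FPKM in a library at each age. At 7 days 4 of these were at least 2-fold lower and none higher, and at 6 months 2 were lower and none higher. Musk, the kinase that organises the end plate, was at 16.4 FPKM (sham) and 9.53 (tenotomy) in adults, and Rapsn, which anchors the receptor, at 7.41 and 4.05. In neonates Musk stood at 6.38 and 0.390 FPKM and Rapsn at 6.53 and 0.428.

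**Figure D2:**
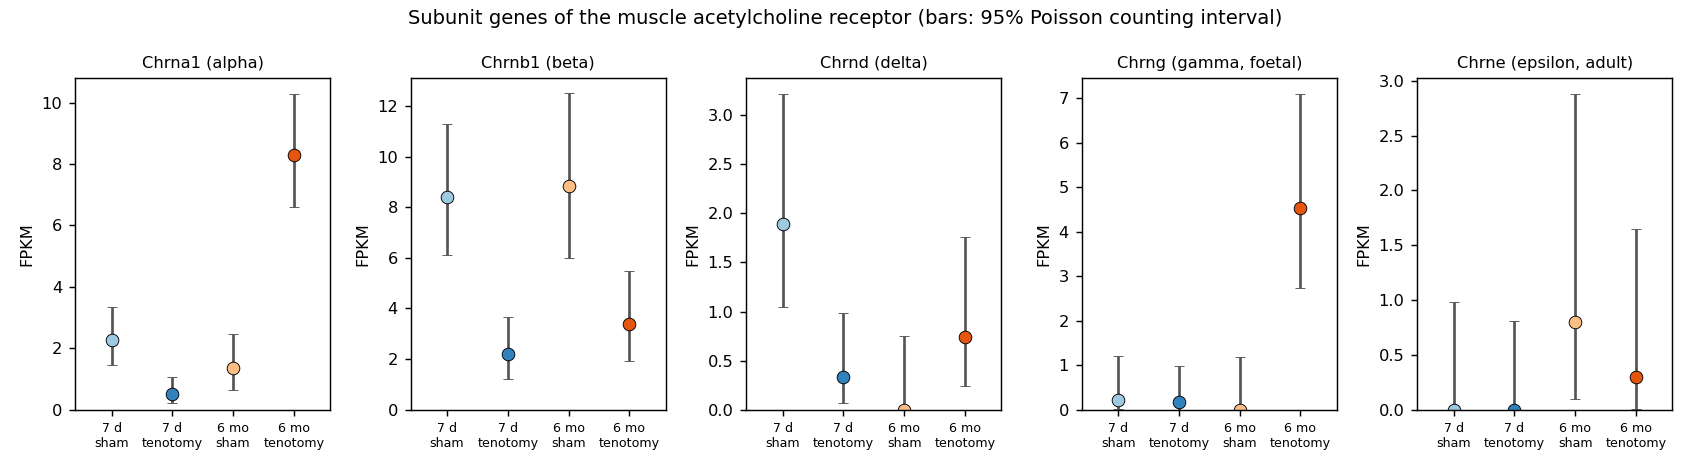
FPKM (vertical axis, linear, a scale of its own in each panel) of the 5 muscle receptor subunit genes in the 4 pooled libraries, with bars for 95% Poisson counting intervals. In the 6-month tenotomy library Chrna1 (8.29) and Chrng (4.54) are at their highest while Chrnb1 (3.38) lies below its 6-month sham value (8.82).

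By the fold rule used across all genes, a gene needed 5 FPKM in either library and an absolute log2 ratio of at least 1. At 6 months, 6 of the 10 genes reached that level. Of these, Myog, Tmem8c and Chrna1 were higher, none was lower, and Myod1, Myf6 and Cdh15 lay within 2-fold. The 3 higher genes reached the level through their tenotomy values alone, so a difference was built into their selection. Of all 9001 genes at that level, 9.62% were higher and 11.9% lower, 866 against 1067 genes, which became 1196 against 766 when the libraries were scaled to a common sum without muscle genes and small RNAs. The members' calls were the same with that scaling. Chrng, at 4.54 FPKM, Myf5, Pax7 and Chrne fell short of the level. At 7 days only Myog, Myf6 and Tmem8c reached it, through their sham values, so that a difference was built in there too, and these 3 were lower, beside 10.3% of 9424 genes; none was higher, beside 5.55% of those genes. Myog and Tmem8c were lower at 7 days and higher at 6 months, as were 0.264% of 8348 genes that reached 5 FPKM at both ages. With all 10 genes included whatever their level, the median log2 ratio was -1.51 at 7 days and 0.59 at 6 months. It was 0 for all entries at each age, but entries listed at 0 in both libraries are among these. For all genes at 5 FPKM it was 0.01 at 7 days and -0.03 at 6 months. In the authors' deposited table, Cdh15, Myf6 (both q = 0.00832) and Myod1 (q = 0.0225) were called significant at 7 days, all lower after tenotomy. These 3 were listed at 0 after neonatal tenotomy. Myog and Tmem8c, with 3 fragments each there, were tested as well but not called (q = 0.998 for both). Over all 10476 genes with a completed test, 0.859% were called, and 0.83% were called and lower. No gene was called in the authors' deposited table for 6 months (0% of 8897), where q was 0.931 for Myog, 0.954 for Tmem8c and 0.814 for Chrna1.

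Other genes of immature fibres were read from a list of 7. At 6 months 6 of them were at least 2-fold higher after tenotomy, with a list median log2 ratio of 2.25, beside -0.03 for all genes. The embryonic myosin gene Myh3 was at 6.24 FPKM (sham) and 33.3 (tenotomy), and the perinatal myosin gene Myh8 at 0.280 and 13.1. Cardiac actin (Actc1), which developing skeletal fibres also make, stood at 8.37 and 49.7 FPKM, and the cardiac troponin gene Tnnt2 at 2.43 and 15.9. The exception was Tnnc1, the troponin C of slow and cardiac fibres, at 549 and 39.8 FPKM. At 7 days all 7 were lower after tenotomy, with a median of -4.05.

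**Figure D3:**
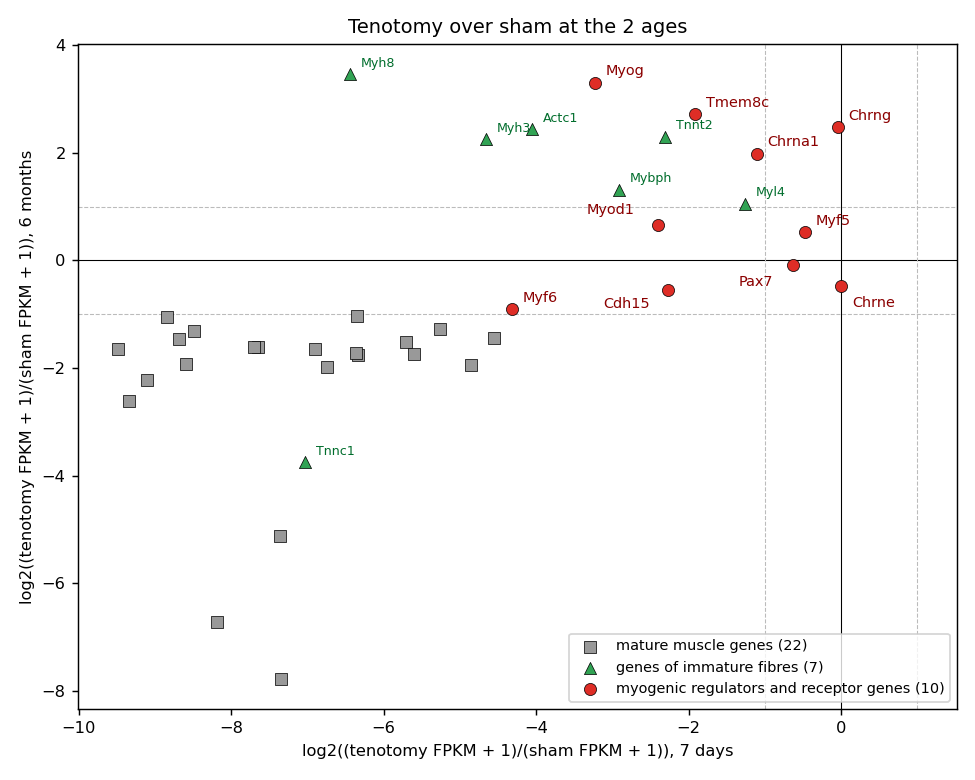
Log2 ratio of tenotomy over sham with 1 FPKM added, at 7 days (horizontal axis) and at 6 months (vertical axis), for the 10 genes, 7 genes of immature fibres and 22 mature muscle genes; dashed lines mark a log2 ratio of 1 or -1. All 22 mature muscle genes lie in the lower left, whereas Myog lies at -3.23 and 3.30 and Tmem8c at -1.92 and 2.71.

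Because the libraries held unequal amounts of muscle RNA, each gene was also set against the summed FPKM of the 22 mature muscle genes of the same library, a ratio that does not depend on scaling between libraries. Per 1000 FPKM of mature muscle genes, Myog stood at 0.0335 FPKM in the adult sham library and 1.58 in the adult tenotomy library, 47.2 times as much (17.7 to 177). The same ratio was 36.6 for Tmem8c (10.8 to 360), 19.3 for Chrna1 (10.0 to 41.8), at least 14.8 for Chrng (exact interval from 10.9), and 5.38 for Myod1 (2.72 to 11.2). It was 1.97 for Cdh15 (1.07 to 3.62) and 1.63 for Myf6 (1.08 to 2.43). Among other receptor and end-plate genes it was 1.20 for Chrnb1 (0.615 to 2.27), 1.83 for Musk (1.34 to 2.52) and 1.72 for Rapsn (0.797 to 3.61). Of 11 such genes above 0 in both adult libraries, 5 were at least 2-fold higher on this scale, with a median ratio of 1.83. A gene of unchanged FPKM would stand at 3.15 on this scale, and 76.6% of all 8977 genes with a sham value above 0 were at least 2-fold higher on it. The 22 mature muscle genes spanned 0.00519 (Myh7) to 1.53 (Pvalb). Since Myh7 and Myh2 were lower than the rest, the remaining muscle RNA was not of the same kind in the 2 libraries, and the part of that in these ratios was not tested.

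In the neonatal tenotomy library, little muscle RNA remained to set the genes against. Per 1000 FPKM of mature muscle genes, Myog was at 0.649 FPKM (sham) and 13.9 (tenotomy), Tmem8c at 0.247 and 15.3, and Chrna1 at 0.0979 and 10.1. On the same scale 98.8% of 9414 genes were at least 2-fold higher after neonatal tenotomy, and Myod1, Myf6 and Cdh15 were at 0 there. The fragments left in that library were 3 for Myog, 3 for Tmem8c, 7 for Chrna1 and 1 for Chrng.

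**Figure D4:**
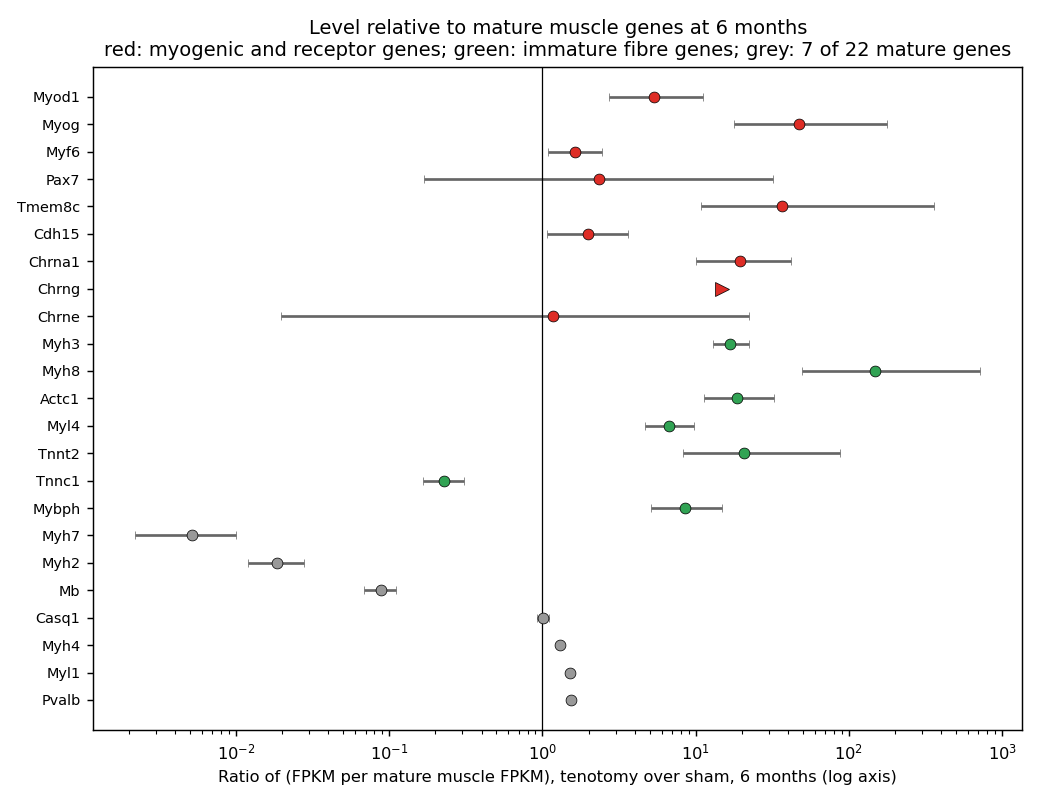
Ratio, tenotomy over sham at 6 months, of each gene's FPKM per mature muscle FPKM (horizontal axis, log scale), for 9 of the 10 genes, 7 genes of immature fibres and, of the 22 mature genes, the 3 lowest, a middle and the 3 highest; bars are 95% counting intervals of the gene and the triangle is a lower bound. Myog (47.2) and Tmem8c (36.6) lie farthest right of the 10 genes, and Myf6 (1.63) close to the mature genes; Myf5, at 2 fragments against 0, is not drawn.

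The sham libraries showed how these genes stood without tenotomy at each age. The tables of the ages were deposited separately, and how they were scaled to each other is not known here. Levels are therefore set side by side with no test. Myog was 8.70-fold higher in the neonatal sham library (3.20 to 33.1), and 19.4-fold higher per mature muscle FPKM (7.14 to 73.9). Tmem8c was 5.23-fold higher (1.44 to 53.5). Myod1 differed by less than counting error in FPKM (neonatal over adult 0.979, 0.459 to 2.16). Per mature muscle FPKM its ratio was 2.19 (1.02 to 4.82). The muscle sum was 23171 FPKM in the neonatal sham library and 51719 in the adult sham library. A gene of equal FPKM would thus also stand higher in neonates on that scale, which bears on the Myog and Myf6 ratios too. Myf6 was 0.572 times as high in neonates in FPKM (0.390 to 0.837), and the direction turned per mature muscle FPKM, with a ratio of 1.28 that lay within counting error (0.872 to 1.87). Per mature muscle FPKM, the adult tenotomy library exceeded the neonatal sham library 2.43-fold for Myog (1.70 to 3.52) and 3.13-fold for Tmem8c (1.73 to 5.85). The same ratio was 5.15 for Chrna1 (3.26 to 8.42), 29.6 for Chrng (4.71 to 1230) and 2.46 for Myod1 (1.34 to 4.63). It was 1.28 for Myf6 (0.836 to 1.93), 1.27 for Cdh15 (0.688 to 2.31), 1.56 for Myf5 (0.113 to 21.5) and 0.517 for Pax7 (0.0511 to 2.90), all within counting error. Chrng in particular had only 1 fragment in the neonatal sham library. The muscle sum was lower after adult tenotomy (16441 FPKM) than after neonatal sham, so a gene of equal FPKM would also exceed the neonatal value. The muscle RNA also differed in kind. Myh4 stood at 61.2 FPKM after neonatal sham and 1227 after adult tenotomy, and the fast myosin gene Myh1 at 868 and 40.1. The part of these differences in the ratios was not tested.

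Other genes of the pathway differed among themselves. Of 21 further myogenic transcription regulators, 16 reached 5 FPKM at 6 months, of which 6 were lower after tenotomy and none higher. At 7 days 15 did, of which 6 were lower and Twist1, a mesenchymal inhibitor of myogenesis, was higher (8.30 and 19.5 FPKM). Smyd1, a muscle methyltransferase, was listed at 0 after neonatal tenotomy against 48.4 FPKM after sham, and stood at 88.5 and 39.1 FPKM in adults. Mef2c, a partner of the myogenic factors, stood at 65.2 and 11.4 FPKM in neonates and 119 and 42.3 in adults. Pax3, the sister gene of Pax7, was listed at 0 in all 4 libraries.

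Of 15 other satellite cell genes, 10 reached 5 FPKM at 7 days and 9 at 6 months. Only Vcam1 and Cxcr4 were at least 2-fold higher, at both ages, and both are also expressed by endothelial or blood cells. Vcam1 stood at 3.82 and 17.0 FPKM in adults and Cxcr4 at 6.53 and 25.5. Des, the muscle intermediate filament, was lower at both ages, and Itga7 at 7 days. Calcr, a marker of resting satellite cells, was listed at 0 in all 4 libraries. Of 8 other genes linked to fusion, 6 reached the level at each age. At 6 months only Gm7325 was at least 2-fold higher and none was lower, and at 7 days the adhesion genes Cdh2 and Kirrel and the membrane repair gene Myof were higher and Cav3, a fibre membrane gene, was lower. Of 12 genes known to respond to loss of innervation, 10 reached the level at each age. At 6 months Myh3 and Runx1 were higher and Trim63, Fbxo32 and Sln lower. At 7 days Runx1 was higher and Myh3, Trim63 and Sln lower. The ubiquitin ligase genes Trim63 (84.5 and 17.1 FPKM) and Fbxo32 (51.2 and 15.3 FPKM) stood lower in adults, where mature muscle genes were lower too. Per mature muscle FPKM, the adult ratio of tenotomy over sham was 0.940 for Fbxo32 (0.809 to 1.09) and 0.936 for Sln (0.355 to 2.21). Both lay within counting error of no change. It was 0.635 for Trim63 (0.480 to 0.830), and 16.8 for Myh3 and 8.27 for Runx1. Runx1 (17.7 and 46.5 FPKM) is also expressed by blood cells. Of 7 cell cycle genes, 6 reached the level at 6 months and all 6 were higher, such as Mki67 (3.94 and 12.1 FPKM). At 7 days all 7 reached it, of which 2 were higher and 5 lay within 2-fold.

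The genes with the most similar profiles were sought among the 10062 entries for single genes that reached 5 FPKM somewhere. Likeness was the Euclidean distance between log2(FPKM + 1) profiles over the 4 libraries, each centred on its own mean, and is a description over 4 points. Myog was nearest to Gm7325 (distance 0.903), Tnnt2 (1.01) and Tmem8c (1.02). Tmem8c was nearest to D330023K18Rik (0.229), Gm7325 (0.277) and Tnnt2 (0.573). Myf6 was nearest to Hspb2 (0.281), Mypn (0.351) and Stac3 (0.385). Myod1 was nearest to Sbk2 (0.417), Snora23 (0.601) and Mybph (0.611), and Cdh15 to Snord22 (0.136), Trim55 (0.191) and Hspb8 (0.205). Chrna1 was nearest to Nudt1 (0.506), Gp49a (0.591) and Rps19-ps3 (0.620), none of which is a gene of the end plate. The other 4 genes did not reach 5 FPKM in any library.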

How the data were processed

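The 4 libraries were each made from pooled tendon RNA. Per the labels' protocols, RNA integrity was below 8, libraries were directional and ribosomal RNA was depleted. TopHat, Cufflinks and mm10 are listed, without versions or roles, in the submitters' processing notes. The authors deposited 1 table per age. Values were taken as FPKM, per the file headers' Cuffdiff layout. The p-values and q-values are the authors' deposited ones and do not hold the spread between animals.

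Fragments were recovered as FPKM × (length − offset) × depth, with GENCODE M21 transcript lengths inside each deposited locus. Depth and offset (185 to 195 bp) were those that made the low FPKM values of genes with 1 transcript (800 bp or longer) whole. Within a tolerance of 0.1, 100% of 107 to 128 low genes per library came out whole. The steps carry any scaling the authors made between libraries. Log2 ratios used a pseudocount of 1 FPKM, a floor of 5 FPKM and a threshold of 1. Ratio intervals are exact conditional binomial (95%). The fold rule and the depth search were tested on simulated data. That simulation held counting error only, without spread between animals. Its changes were planted in genes better expressed than most of the genes reported here, so it does not cover the low ones.

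The 10 genes and the lists were chosen with earlier results of these data known. Named were all 10 genes, the 3 nearest profiles and, from most lists, up to 4 genes past 2-fold. From the fusion, denervation and immature fibre lists more than 4 were named. Chrnb1, Chrnd, Musk, Rapsn, Pax3, Calcr, Sox10, Scx, Mki67, Myh4, Pvalb and Twist1 were named for their role. Hmga1, Nnat, Snora15 and Myh1 were named after their values were seen. Promoter stretches came from RefSeq (GRCm38.p6), where 7 of the 10 genes matched. Alternatives changed the pseudocount, floor, scaling, muscle reference or took the authors' call. Software: matplotlib 3.10.9, SciPy 1.17.1, pandas 2.3.3, NumPy 2.4.6, Python 3.11.15.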

Additional observations from a re-analysis of the deposited data

Results flagged for a closer look

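Myog and Tmem8c had opposite directions at the 2 ages. The log2 ratio of tenotomy over sham for Myog was -3.23 at 7 days and 3.30 at 6 months, and for Tmem8c it was -1.92 and 2.71. The difference between ages was not tested, since each value rests on a single pair of pooled libraries. The summed mature muscle FPKM was 453-fold lower after tenotomy at 7 days and 3.15-fold lower at 6 months beside these values, and its part in them was not tested.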

How the results depend on the processing

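None of the log2 ratios of the 10 genes called by the fold rule changed sign under another pseudocount or scaling. The count of called genes among the 10 depended on the floor. At 7 days it was 3, all lower, and 6, all lower, with a floor of 1 FPKM or none, the added genes being Myod1, Cdh15 and Chrna1. With a floor of 20 FPKM it was 0 at 7 days and 1 at 6 months, Myog being higher. At 6 months a floor of 1 FPKM added Chrng, and at 7 days a pseudocount of 5 FPKM removed Tmem8c. The authors' deposited call gave 3 at 7 days and 0 at 6 months. The 3 were Myod1, Myf6 and Cdh15, of which only Myf6 was also called by the fold rule. That rule called Myog and Tmem8c instead of Myod1 and Cdh15, which lay under its floor. Over all genes, 1496 were called at 7 days, 920 with a pseudocount of 5 FPKM, 816 with a floor of 20 FPKM and 90 by the authors' deposited call. At 6 months 1933 were called, 1039 with that pseudocount, 976 with that floor and 0 by the deposited call. Rescaling to a common sum without muscle genes and small RNAs moved the 6-month median of all genes from -0.03 to 0.15 and the split from 866 higher and 1067 lower to 1196 and 766. Levels from 1 to 3 fragments limit what can be read, as for Myf5, adult Pax7, adult Chrne and neonatal Chrng. The same holds for Tmem8c after adult sham and for Myog and Tmem8c after neonatal tenotomy. No paired analysis was possible because each group is 1 pooled library.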

Other observations

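Of 8348 genes at or above 5 FPKM in a library at both ages, 22 (0.264%) were at least 2-fold lower after tenotomy at 7 days and at least 2-fold higher at 6 months. Besides Myog and Tmem8c, 6 of them were genes of immature fibres: Myh3, Myh8, Actc1, Myl4, Tnnt2 and Mybph. The other 14 included Hmga1, a chromatin protein of growing cells, which stood at 9.36 and 3.40 FPKM in neonates and at 0.00104, a value below that of 1 fragment, and 17.6 in adults, and the imprinted gene Nnat, at 76.9 and 14.0 in neonates and 5.48 and 12.0 in adults, sham first. They also held small RNA entries such as Snora15, which was listed at 0 in the neonatal tenotomy and adult sham libraries. These genes were picked by their values, and no test was made.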
